A study of Mus musculus with 10 samples.

Results

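Libraries of mouse small-intestine crypt cells labelled as high in OSCAR ratio were compared with libraries labelled as medium, both labelled as low in overall reporter level. The comparison took the 2 libraries titled P2, with the label OSCARhigh EF1alow, and the 2 titled P4, with the label OSCARmed EF1alow, out of 10 libraries from 5 populations. OSCAR (Optical Stem Cell Activity Reporter) is a pair of fluorescent proteins, mCherry and VeN90, made from 1 transcript under the EF1a promoter, and VeN90 carries a peptide that the kinase CDK9 phosphorylates, so that the VeN90 to mCherry ratio is built to be high where CDK9 is little active. "EF1a low" therefore marks cells with little reporter protein of either colour. All populations came from EF1a-OSCAR mice (strain label C57BL6/J), whose construct sits in the Rosa26 locus and lost its stop cassette in the germ line of Vasa-Cre breeders, so that every cell could make it. Live EpCAM+ cells were sorted, 10000 for each population, and their poly-A RNA was sequenced. The age of the mice, and whether a library came from 1 mouse or a pool, were not given in the sources used here. The replicates are described as biological by the study, and p-values measure the spread between these libraries.

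The population names below are those of the deposited sample titles. The deposited files carry other population numbers than the titles, and the study's account of which gate held which cell types cannot be carried over to these libraries by title. It is therefore in doubt which gate the secretory genes described below came from. Reads from the reporter were not among the counted genes, so the gate of a library could not be checked from its counts. Each statement on P2 or P4 holds for the libraries with that title, and its link to a high or medium OSCAR ratio rests on the labels alone.

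The crypt holds cycling stem cells at its base, which give rise to absorptive enterocytes and to secretory cells. The secretory lineage includes Paneth cells, which release antimicrobial peptides and sit between the stem cells, mucus-making goblet cells, hormone-making enteroendocrine cells and chemosensory tuft cells. Notch signalling from neighbouring cells keeps Hes1 on and the secretory master regulator Atoh1 off, while Wnt signals maintain the stem cells and also drive Paneth cell maturation.

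The libraries of P2 held 4781844 and 6357588 reads counted on genes and those of P4 5403910 and 6485823. Levels are given as CPM, counts scaled to a library of 1000000 and then by TMM (trimmed mean of M-values), replicate 1 first. The TMM factors, which divide the values, were 0.687 and 0.707 in P2 and 1.51 and 1.56 in P4, so that a gene with the same share of counts everywhere has a higher scaled level in P2. Alignments at more than 1 place, which were not counted on any gene, made up 29.3% and 28.2% of all records in P2 and 13.6% and 14.1% in P4. The share of mitochondrial counts was 1.04% and 1.04% in P2 and 3.88% and 3.47% in P4. The libraries titled P3, which enter the model through the shared spread, the scaling and the filter, stood apart with 60.1% and 36.4% mitochondrial counts.

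Genes of all 4 secretory cell types were higher in P2 than in P4, and genes of DNA replication and mitosis were lower. In the active stem cell list of 35 genes, 5 rose and 3 fell, against 8.0% and 6.31% of all genes. By value 25 of the 35 were lower in P2, with a median log2 fold change of -0.78. Of 13706 genes tested, 1962 differed between P2 and P4 (14.3%) by edgeR's quasi-likelihood test at an adjusted p under 0.01. Of these, 1097 were higher in P2 (8.0%) and 865 lower (6.31%). The median log2 fold change over all genes tested was 0.05. The libraries of P2 and P4 did not overlap for any of the 1962 genes, against 71.2% of all genes tested. The number of calls rested on having both libraries of each population: it was 622 without P2 replicate 1, 588 without P2 replicate 2, 393 without P4 replicate 1 and 320 without P4 replicate 2. An exact permutation test of a single gene over 2 against 2 libraries cannot go below p = 0.333, and the p-values of single genes are therefore taken from the fit over the whole table.

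**Figure D1:**
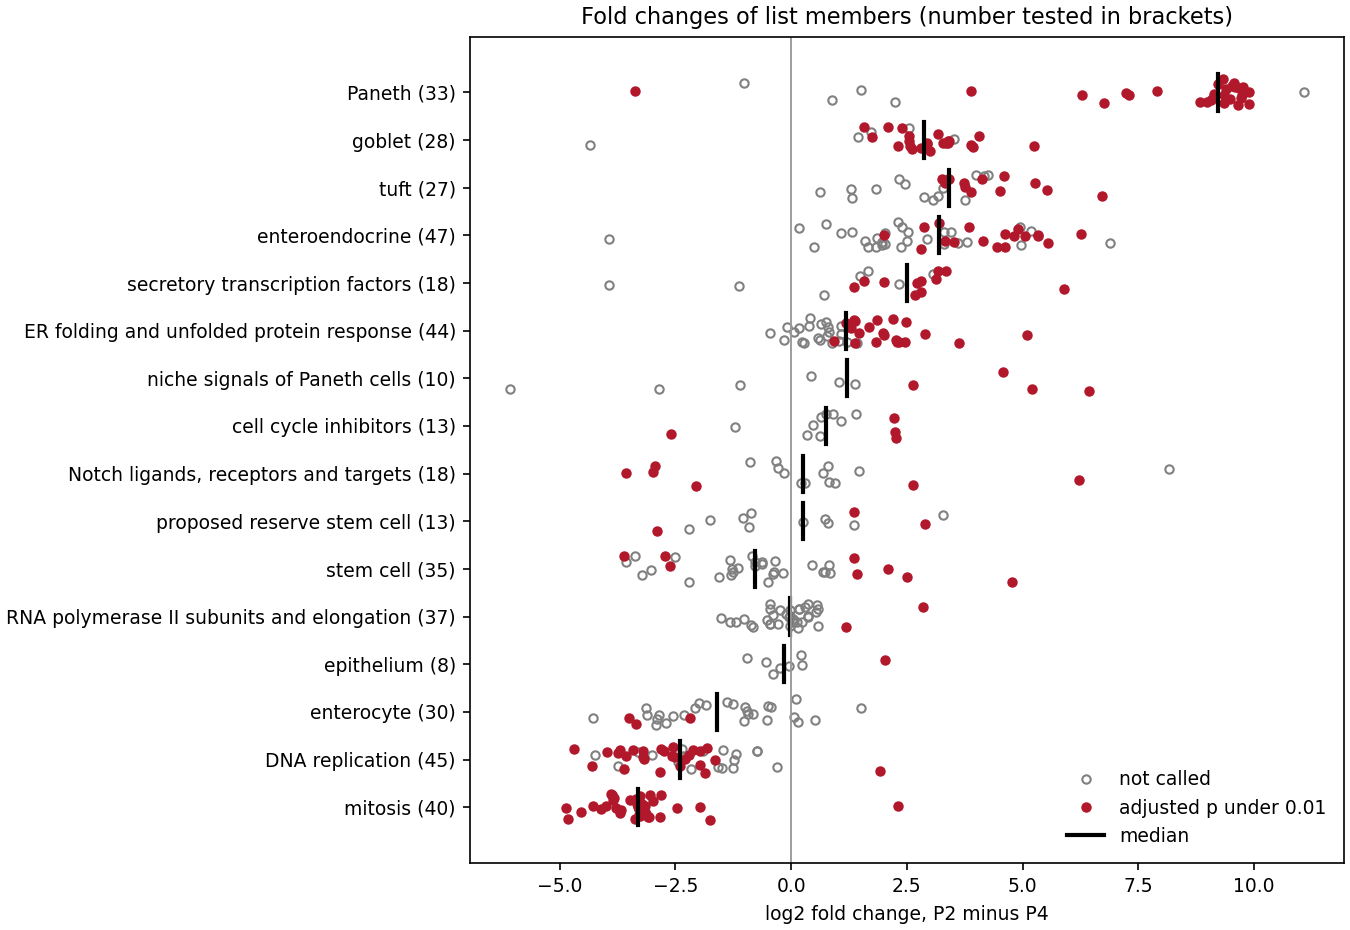
Fold changes of list members between P2 and P4. Each point is 1 tested gene, placed by its log2 fold change (P2 minus P4, horizontal axis), with 1 row per list, filled points past an adjusted p of 0.01 and black bars at the list medians. The Paneth median lies at 9.22, the medians of the goblet, tuft and enteroendocrine lists between 2.87 and 3.42, and that of the mitosis list at -3.30.

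Paneth cell genes had the largest median of all lists. Of 36 genes written for this list, 34 had a row and 33 were tested; 27 rose in P2, 1 fell and 5 were not called, against 8.0% of all genes higher. The median log2 fold change was 9.22. Lyz1, the lysozyme of Paneth cells (chr10:116724852-116729924, NCBIM37), was at 265109 and 183581 CPM in the libraries of P2 and at 184 and 369.8 CPM in those of P4. It took 18.2% and 12.9% of all counts in P2 and 0.0278% and 0.0575% in P4, and its log2 fold change was 9.66 ± 1.48 (SE, edgeR adjusted p = 0.0020). Both libraries of P2 lay far above both of P4. Together the list took 49.8% and 38.8% of the counts in P2 and 0.285% and 0.377% in P4. In bulk libraries such as these, fewer cells of a type and less RNA per cell cannot be told apart.

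Alpha-defensins, the antimicrobial peptides stored in Paneth cell granules, were a large part of the list. Defa26 was at 1790.2 and 1964 CPM in P2 and 0.614 and 3.17 CPM in P4 (log2 fold change 9.90 ± 1.24 (SE), edgeR adjusted p = 0.00090). The defensin-family genes Gm15284 and AY761184 rose to a like extent, with log2 fold changes of 9.89 ± 1.19 and 9.76 ± 1.22 (edgeR adjusted p = 0.00081 and 0.00090). Gm14851 was at 13393 and 18103 CPM in P2 and 9.58 and 27.9 CPM in P4. Defensin genes are near copies of each other: of the 75-base windows of their annotated transcripts (the number of sequencing cycles in the labels), 97.4% in Defa5, 91.3% in Defa17 and 56.4% in Defa21 also occur in another gene. In Defa26 the share was 14.1%, in Defa24 6.67% and in Lyz1 6.22%. Levels of single defensins are therefore uncertain, and the part of the uncounted alignments in these values was not tested. Of 33 list members with annotated transcripts, 14 shared over 20% of their windows with another gene. The count and median of the list thus lean on closely related genes. Genes with no shared window rose too, among them the matrix protease Mmp7, which activates defensins (5408 and 3379 CPM in P2, 37.5 and 20.6 CPM in P4, log2 fold change 7.24 ± 0.89).

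Promoter sequences were read for the Paneth genes because so many of them moved together. In the 250 bases before the start, the letters ATCAAAG, the core bound by the Wnt effector TCF, were searched on both strands in RefSeq promoters of GRCm38.p6, matched by symbol; the counts themselves are on mm9. They occurred in 7 of 17 Paneth genes with a sequence, in 2 of 24 stem cell genes and in 3.72% of all 27025 genes. Defa20 and Defa21 are shown as genes that rose, with the match in capitals, from chr8:21509106-21509232 (+ strand) and chr8:21025393-21025519 (+ strand), and Reg3a, from chr6:78380662-78380708 (+ strand), as the 1 gene of the list that fell; Reg3a holds the match on the other strand.
Defa20: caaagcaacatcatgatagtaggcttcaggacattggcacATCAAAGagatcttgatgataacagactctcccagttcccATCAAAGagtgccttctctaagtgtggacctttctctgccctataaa
Defa21: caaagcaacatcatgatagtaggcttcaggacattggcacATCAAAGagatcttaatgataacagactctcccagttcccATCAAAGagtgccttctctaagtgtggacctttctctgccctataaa
Reg3a: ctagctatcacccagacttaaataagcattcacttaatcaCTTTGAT
Defa20 and Defa21 differ at 5 of the 250 bases, and Defa22 is identical to Defa21 over all 250. The matches of these near copies are not separate cases, so the share of 7 in 17 counts like sequence repeatedly. Of the 7 Paneth genes with a match, Defa20, Defa21, Defa22 and Mmp7 rose, Reg3a fell, Reg3g was not called and Defa23 was too low to be tested. The log2 fold changes were 9.08 ± 1.25 for Defa20, 9.33 ± 1.27 for Defa21 and 9.52 ± 1.35 for Defa22. A match describes the letters only.

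Not every gene of the Paneth list was higher in P2. Reg3a, a C-type lectin of the antimicrobial Reg3 family, was at 8.53 and 11.8 CPM in P2 and 138 and 74.5 CPM in P4 and fell (log2 fold change -3.37 ± 0.54 (SE), edgeR adjusted p = 0.0023). The related Reg3b and Reg3g had log2 fold changes of -1.01 ± 0.52 and 0.88 ± 0.87 and were not called. Gm15299 had 802 and 6.24 CPM in the 2 libraries of P2, and its log2 fold change of 11.08 ± 3.31 was not called (edgeR adjusted p = 0.033). These genes, and Mmp7, Defa5, Defa17, Defa20, Defa21, Defa22 and Defa24 above, were chosen after their values were seen. The number of Paneth genes higher in P2 was 26 without P2 replicate 1, 26 without P2 replicate 2, 12 without P4 replicate 1 and 14 without P4 replicate 2.

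Paneth cells feed the stem cells next to them with growth signals, and 10 of 13 such signal genes could be tested. Wnt3, the Wnt ligand of Paneth cells, was at 202 and 207 CPM in P2 and 2.21 and 2.48 CPM in P4 (log2 fold change 6.43 ± 0.81 (SE), edgeR adjusted p = 0.00094). The 2 libraries of each population were close, and P2 was 86.2-fold above P4. The growth factor Egf was at 69.8 and 63.8 CPM in P2 against 2.46 and 1.19 CPM in P4, and Tgfb1 at 7.62 and 11.6 CPM against 0.369 and 0.397 CPM. With Wnt3 and the Notch ligand Dll4, 4 members rose (edgeR adjusted p = 0.00094 to 0.0044), against 8.0% of all genes higher, and no member fell. This count was 2 without P2 replicate 1, 2 without P2 replicate 2, 0 without P4 replicate 1 and 0 without P4 replicate 2. Wnt6 had no counts in P2 and 2.09 and 0.595 CPM in P4, at least 3.27-fold lower in P2 when 3 counts over both libraries are taken as the floor, and was not called. It was named after its values were seen.

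Goblet cell genes rose by less. Of 28 tested, 23 rose, against 8.0% of all genes higher, none fell and 5 were not called (median log2 fold change 2.87). Muc2, the gel-forming mucin, was at 7635 and 13533 CPM in P2 and 1140.1 and 880.1 CPM in P4 (log2 fold change 3.39 ± 0.57 (SE), edgeR adjusted p = 0.0029). The lectin Zg16, found in mucus, showed 9961 and 26298 CPM in P2 and 1347 and 1029 CPM in P4, and Clca3, a protein secreted with mucus, 5104 and 11513 CPM against 946 and 609.8 CPM. Replicate 2 of P2 was above replicate 1 for all 3. The chemokine Ccl6 had the largest log2 fold change of the list, 5.25 ± 0.63 (edgeR adjusted p = 0.00081), followed by Spink4 with 4.05 ± 0.78 and Zg16 with 3.93 ± 0.62. Sytl2, which links secretory vesicles to the membrane, was more alike between replicates, at 522 and 499 CPM in P2 and 41.4 and 27.7 CPM in P4. St6galnac1, a glycosyltransferase named after its values were seen, pointed the other way with 0.305 and 0.669 CPM in P2 and 1.23 and 20.2 CPM in P4, without being called. The number of goblet genes higher in P2 was 15 without P2 replicate 1, 12 without P2 replicate 2, 9 without P4 replicate 1 and 4 without P4 replicate 2, and 12 tested against a fold of 2.

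Tuft cell genes pointed upward without exception among the 27 tested, but fewer passed the test. Of the 27, 12 rose, against 8.0% of all genes higher, and 15 were not called (median log2 fold change 3.42). Among the 12 was Cd24a, which also stands in the Paneth list and was named after its values were seen. Dclk1, a kinase used as the tuft marker and also proposed to mark reserve stem cells, was at 118 and 268 CPM in P2 and 22.5 and 17.6 CPM in P4, with a log2 fold change of 3.27 ± 0.94 that missed the threshold (edgeR adjusted p = 0.028). The libraries of P2 lay above those of P4, and differed from each other by more than 2-fold. Among the genes that rose, the kinase Matk was at 72.5 and 129 CPM in P2 against 2.58 and 1.79 CPM in P4. Alox5, which starts leukotriene synthesis, had a log2 fold change of 4.60 ± 0.61, Sh2d6 of 4.52 ± 0.65 and Nrgn of 6.72 ± 1.40 (edgeR adjusted p = 0.0011, 0.0016 and 0.0074). In replicate 2 of P2, 24 of the 27 genes were higher than in replicate 1, with a median ratio of 1.73. The count of tuft genes higher in P2 was 6 without P2 replicate 1, 3 without P2 replicate 2, 2 without P4 replicate 1 and 1 without P4 replicate 2. It was 24 with no filter on low counts, 19 by DESeq2, 21 with the 4 libraries alone, 20 without P3 and 7 tested against a fold of 2.

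Of 47 enteroendocrine genes tested, 18 rose, against 8.0% of all genes higher, none fell and 29 were not called (median log2 fold change 3.20). By value 46 were higher in P2 and 1 was lower, Neurog3, which is described with the transcription factors below. Chga, the granule protein chromogranin A, was at 850.1 and 2287 CPM in P2 and 77.5 and 49.7 CPM in P4 (log2 fold change 4.62 ± 0.90 (SE), edgeR adjusted p = 0.0055). The largest called changes were in Resp18 (6.27 ± 1.02), the islet peptide Iapp (5.55 ± 0.85), the granule protein Ptprn (5.33 ± 0.82), the irritant-sensing channel Trpa1 (5.34 ± 0.64) and the peptide Ucn3 (5.05 ± 0.90), all on the log2 scale with edgeR adjusted p = 0.0011 to 0.0064. Hormone genes named after their values were seen differed in how far the 2 libraries of P2 lay apart. Somatostatin (Sst) was at 744 and 1803 CPM in P2 and 85 and 31.9 CPM in P4 and rose, whereas Nts had 68.6 and 1154 CPM in P2, and with a log2 fold change of 6.88 ± 1.76 was not called (edgeR adjusted p = 0.018). Gip, the incretin, was at 1901 and 4165 CPM in P2 and 136 and 31.6 CPM in P4, also uncalled (edgeR adjusted p = 0.051), and the proglucagon gene Gcg overlapped between the populations, with 21 and 176 CPM in P2 and 53.6 and 40.9 CPM in P4.

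All 46 enteroendocrine genes with counts in both libraries of P2 were higher in replicate 2 than in replicate 1, with a median ratio of 2.71; over all genes tested, 57.6% were higher in replicate 2. In P4 it was replicate 1 that was higher, for 39 of 47. Only 13 of the 33 Paneth genes were higher in replicate 2 of P2, and the Paneth list summed to 725521 and 549893 CPM against 7116 and 17719 CPM for the enteroendocrine list. The libraries of P2 thus differed in their balance of secretory genes. The number of enteroendocrine genes higher in P2 was 13 without P2 replicate 1, 3 without P2 replicate 2, 5 without P4 replicate 1 and 3 without P4 replicate 2. It was 38 with no filter on low counts, 29 by DESeq2, 26 with the 4 libraries alone, 25 without P3 and 11 tested against a fold of 2. The number lower was 1 in each of these but the last, where it was 0.

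**Figure D2:**
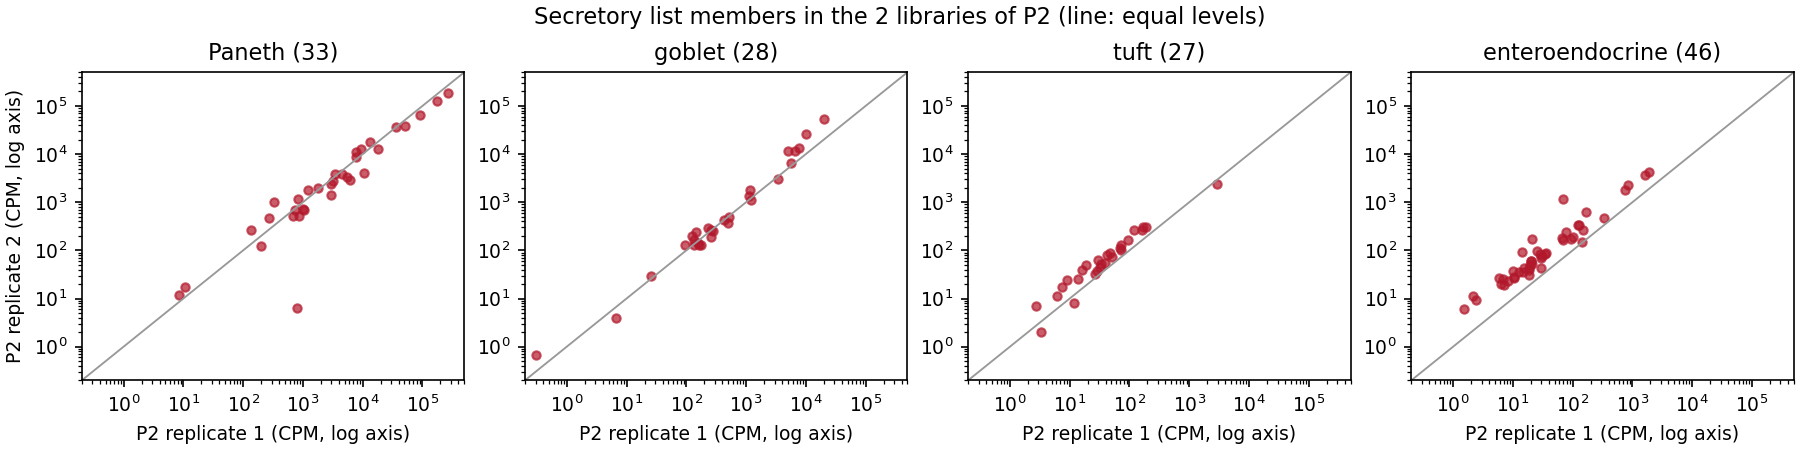
Secretory list members in the libraries of P2. Each point is 1 tested gene with counts in both libraries, with CPM in replicate 1 on the horizontal axis and in replicate 2 on the vertical axis (both log axes), 1 panel per list with its number of genes, and the line marks equal levels. The 46 enteroendocrine genes and 24 of the 27 tuft genes lie above the line, and 13 of the 33 Paneth genes do; the Paneth gene far below the line is Gm15299 with 802 and 6.24 CPM.

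Of 18 transcription factors of the secretory lineage, 11 rose, against 8.0% of all genes higher, and none fell (median log2 fold change 2.50). Some of these factors also stand in the goblet, tuft, enteroendocrine or stem cell lists. Atoh1, needed for all secretory fates, was at 136 and 165 CPM in P2 and 17.1 and 16.2 CPM in P4 (log2 fold change 3.17 ± 0.34 (SE), edgeR adjusted p = 0.00056), and it was called whichever of the 4 libraries was left out. Bhlha15 (Mist1), which builds the secretory apparatus, had the largest change, with 358 and 291 CPM against 6.51 and 4.46 CPM and a log2 fold change of 5.89 ± 0.77. Spdef, of goblet and Paneth maturation, and Gfi1, which separates these from the endocrine fate, rose by 3.34 ± 0.34 and 3.13 ± 0.58 on the log2 scale (edgeR adjusted p = 0.00050 and 0.0043). Neurod1, an endocrine factor downstream of Neurog3, rose as well (2.82 ± 0.58). Neurog3 itself, which is on for a short time in endocrine progenitors, ran the other way: it had 0 and 1.56 CPM in P2 and 14.7 and 11.9 CPM in P4, with no overlap and a log2 fold change of -3.92 ± 1.0 that missed the threshold (edgeR adjusted p = 0.018). It was named after its values were seen, passed the threshold without the libraries of P3, and its adjusted p over all alternatives ran from 1.7e-06 to 0.089. The number of factors higher in P2 was 6 without P2 replicate 1, 5 without P2 replicate 2, 2 without P4 replicate 1 and 2 without P4 replicate 2, and 4 tested against a fold of 2.

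Within the Notch pathway, 18 of 20 genes were tested, 2 rose and 4 fell (median log2 fold change 0.26), against 8.0% and 6.31% of all genes. The 2 that rose were ligands: Dll4 was at 90.5 and 79.6 CPM in P2 and 14.4 and 12.9 CPM in P4, and Dll3, which lacks activating function, at 27.7 and 17 CPM against 0.491 and 0.0992 CPM. Dll1, the other ligand of secretory progenitors, was at 89.9 and 96.1 CPM in P2 and 57.7 and 48.6 CPM in P4 and missed the threshold (log2 fold change 0.81 ± 0.25 (SE), edgeR adjusted p = 0.038). All 4 that fell were receptors or targets. Notch1 was at 9.45 and 8.70 CPM in P2 and 64.3 and 75.4 CPM in P4, and Notch2 at 3.66 and 3.12 CPM against 34.9 and 44.8 CPM. Among the targets, Hes1, the repressor of Atoh1, was at 9.14 and 11.4 CPM against 40.7 and 45 CPM, and the feedback inhibitor Nrarp at 4.88 and 4.01 CPM against 32.4 and 37.4 CPM. Their log2 fold changes ran from -3.56 ± 0.33 for Notch2 to -2.05 ± 0.31 for Hes1 (edgeR adjusted p = 0.00042 and 0.0019). The target Heyl, named after its values were seen, pointed upward, with 6.40 and 5.13 CPM in P2 and no counts in P4. It was at least 34.4-fold higher in P2 against 3 counts over both libraries of P4 and missed the threshold (edgeR adjusted p = 0.017). Notch2 and Nrarp were called in all 4 fits that left out 1 library. Neither Hes1 nor the ligands Dll3 and Dll4 were called in any of these, and the number of Notch genes lower in P2 was 3 without P2 replicate 1, 2 without P2 replicate 2, 3 without P4 replicate 1 and 3 without P4 replicate 2. Dll1, Dll4 and Notch1 overlap annotated genes on the opposite strand, and counting ignored strand.

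**Figure D3:**
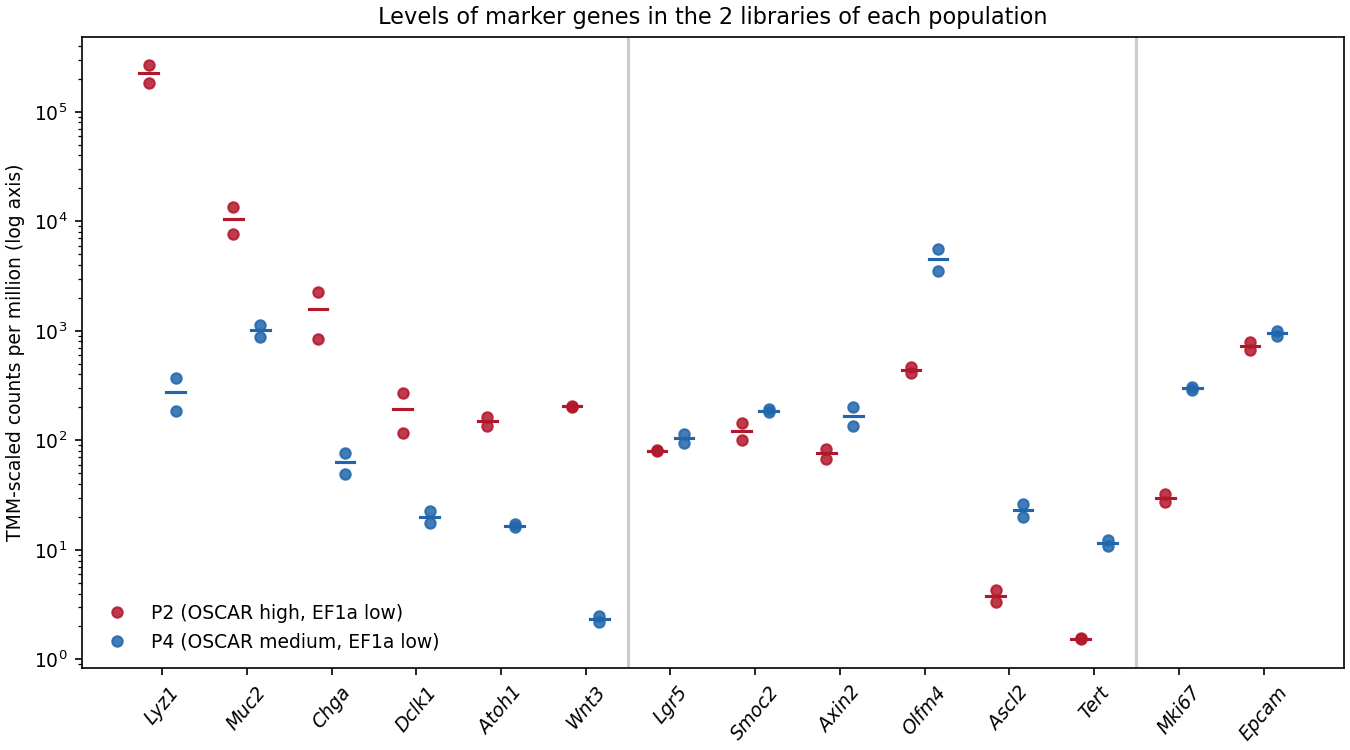
Levels of marker genes in P2 and P4. Points are single libraries (2 per population, TMM-scaled CPM on a log axis) and short lines their means, with secretory genes on the left, stem cell genes in the middle and Mki67 and Epcam on the right. Lyz1 lies at 265109 and 183581 CPM in P2 and 184 and 369.8 CPM in P4, Lgr5 at 80.5 and 81.2 CPM and 94.6 and 115 CPM, and Olfm4 at 468 and 411 CPM and 3486 and 5603 CPM.

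The 35 genes of the active stem cell list were all tested, and most were not called: 5 rose and 3 fell, against 8.0% and 6.31% of all genes, with a median log2 fold change of -0.78, and 25 of the 35 were lower in P2 by value. Lgr5, the receptor that defines cycling crypt base stem cells (chr10:114887367-115024836, NCBIM37), was at 80.5 and 81.2 CPM in P2 and 94.6 and 115 CPM in P4. The populations did not overlap, but the difference was not called (log2 fold change -0.37 ± 0.28 (SE), edgeR adjusted p = 0.35), which does not show that they were alike. Smoc2 (144 and 100.1 CPM in P2, 180.2 and 195 CPM in P4) and the Wnt target Axin2 (84.1 and 68 CPM in P2, 135 and 201 CPM in P4) were uncalled as well, with log2 fold changes of -0.62 ± 0.29 and -1.14 ± 0.61. Olfm4, a secreted marker of stem cells and their early daughters, stood at 468 and 411 CPM in P2 and 3486 and 5603 CPM in P4, a difference of -3.37 ± 0.82 on the log2 scale that missed the threshold (edgeR adjusted p = 0.014) and passed it without the libraries of P3 and by DESeq2. Its adjusted p over all alternatives ran from 2.8e-15 to 0.089.

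The 3 stem cell genes that fell were Ascl2, Cdca7 and Aqp4. Ascl2, the Wnt-dependent stem cell transcription factor, was at 4.27 and 3.35 CPM in P2 and 20.1 and 26.1 CPM in P4 (log2 fold change -2.61 ± 0.51 (SE), edgeR adjusted p = 0.0055). Cdca7, also linked to the cell cycle, was at 29.6 and 18.1 CPM against 150.1 and 163 CPM, and the water channel Aqp4 at 5.49 and 7.81 CPM against 95.7 and 69.7 CPM, with the largest fall (log2 fold change -3.62 ± 0.33 (SE), edgeR adjusted p = 0.00038). The 5 that rose were Nkd1, Phlda1, Ephb3, Lgr4 and Sox9. Nkd1, a feedback inhibitor of Wnt signalling, was at 72.2 and 64.2 CPM in P2 and 2.70 and 2.28 CPM in P4 (log2 fold change 4.77 ± 0.68 (SE), edgeR adjusted p = 0.0015), and Phlda1 at 85.3 and 84.5 CPM against 11.1 and 18.8 CPM. Sox9 was at 149 and 126 CPM in P2 and 47.1 and 60.2 CPM in P4 (1.36 ± 0.28), the receptor Ephb3 rose by 2.09 ± 0.38 and the R-spondin receptor Lgr4 by 1.43 ± 0.31. Sox9 and Ephb3 are known from Paneth cells as well as from stem cells. Ephb3 and Lgr4 were named after their values were seen.

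Calls in this list moved with the fit. Aqp4 was called in all 4 fits that left out 1 library and Nkd1 in 1 of them; Ascl2, Cdca7, Phlda1, Ephb3, Lgr4 and Sox9 were called in none. In each of these fits 1 gene of the list was lower, and the number higher was 0 without P2 replicate 1, 1 without P2 replicate 2, 0 without P4 replicate 1 and 0 without P4 replicate 2. The number lower was 16 with no filter on low counts, 8 by DESeq2, 7 with the 4 libraries alone, 8 without P3 and 1 tested against a fold of 2, and in all of these but the last more genes of the list were lower than higher. The number higher was 1 tested against a fold of 2, 3 scaled without the 10 most abundant genes and 3 without mitochondrial genes; Sox9 and Lgr4 missed the threshold when the scaling left out the 10 most abundant genes. The list summed to 4550.0 and 3237 CPM in P2 and 6738 and 9219 CPM in P4.

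**Figure D4:**
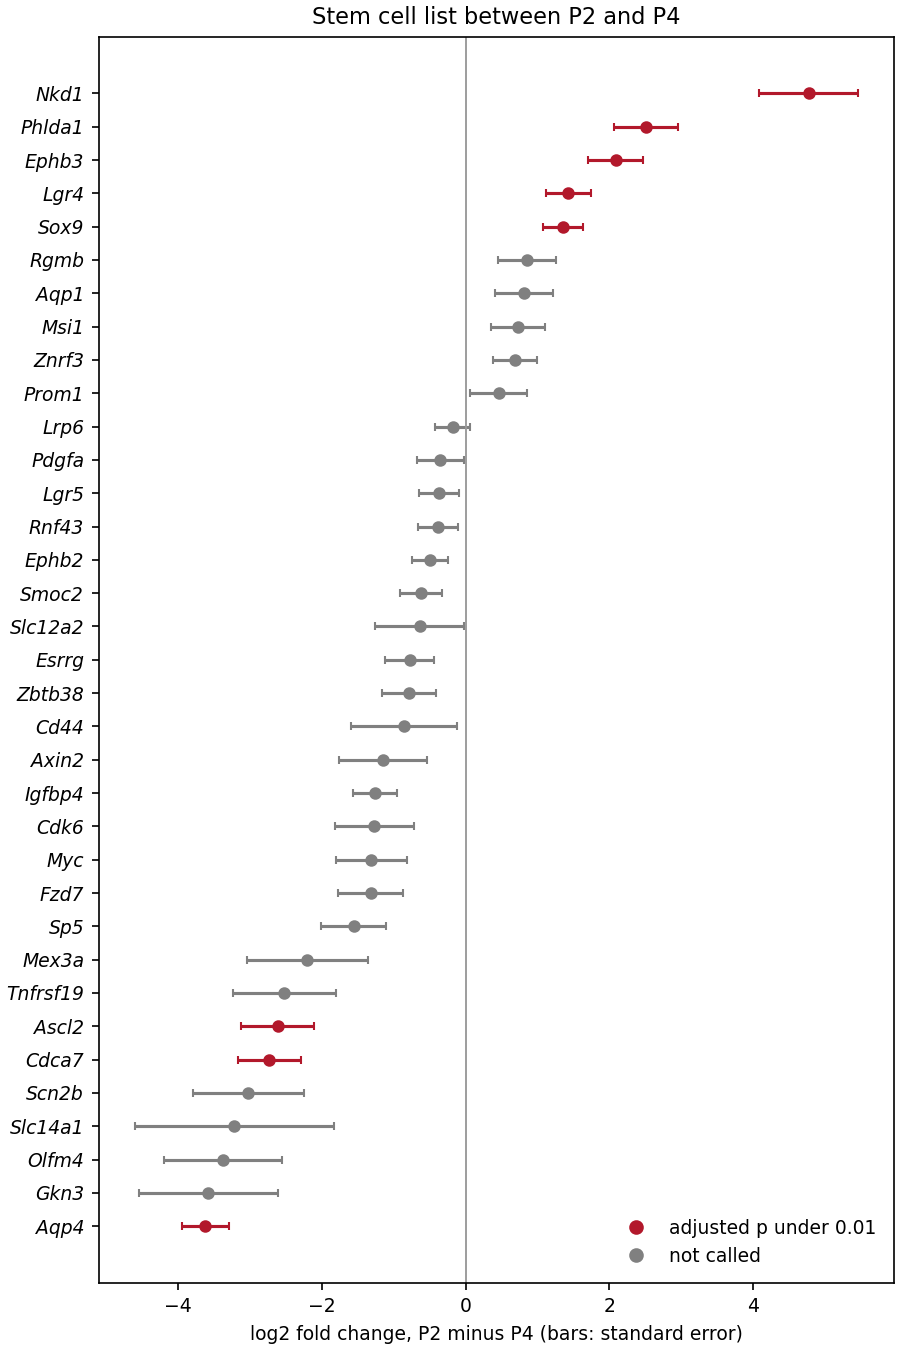
The stem cell list between P2 and P4. Each of the 35 genes is placed by its log2 fold change (P2 minus P4, horizontal axis) with bars of 1 standard error, and red marks an adjusted p under 0.01. The 5 genes that rose run from Sox9 at 1.36 to Nkd1 at 4.77, and the 3 that fell from Ascl2 at -2.61 to Aqp4 at -3.62.

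Of 13 tested genes proposed to mark slowly cycling reserve stem cells, 2 rose, 1 fell and 10 were not called. Over all genes 8.0% rose and 6.31% fell, and the median log2 fold change of the list was 0.25. Tert, the telomerase subunit, was at 1.52 and 1.56 CPM in P2 and 12.3 and 10.9 CPM in P4 and fell (log2 fold change -2.89 ± 0.45 (SE), edgeR adjusted p = 0.0022). The keratin Krt19 was at 267 and 541 CPM against 1303 and 1430.1 CPM and missed the threshold in this fit (log2 fold change -1.76 ± 0.42, edgeR adjusted p = 0.013), which it passed with DESeq2's size factors, without the libraries of P3 and in 4 further alternatives (adjusted p 4.0e-06 to 0.11 over all). Prox1, a homeobox factor also found in endocrine cells, rose from 1.97 and 2.48 CPM in P4 to 14.6 and 18.5 CPM in P2 (2.89 ± 0.48). The other gene that rose was Sox9, which is also in the stem cell list above. Hopx was at 166 and 127 CPM in P2 and 51.1 and 62.1 CPM in P4, and the Polycomb protein Bmi1 at 22.9 and 23.6 CPM against 13.8 and 13.2 CPM; both pointed upward without being called (edgeR adjusted p = 0.023 and 0.069). Lrig1 overlapped between the populations, with 223 and 178 CPM in P2 and 138 and 198 CPM in P4. No member of this list was called when any 1 of the 4 libraries was left out. In other alternatives the number higher was 4 with no filter on low counts, 4 with the 4 libraries alone, 4 without P3, 0 tested against a fold of 2, 1 scaled without the 10 most abundant genes and 1 without mitochondrial genes, and the number lower 4 with no filter on low counts, 3 by DESeq2, 2 without P3, 3 scaled without the 10 most abundant genes, 2 without mitochondrial genes and 2 with DESeq2's size factors.

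Genes of the cell cycle were lower in P2. Of 40 mitosis genes, 38 fell, 1 rose and 1 was not called, against 6.31% of all genes lower, with a median log2 fold change of -3.30. Mki67, which marks cycling cells, was at 32.3 and 27.7 CPM in P2 and 287 and 310.4 CPM in P4 (log2 fold change -3.32 ± 0.39 (SE), edgeR adjusted p = 0.00069), and stayed called whichever of the 4 libraries was left out. The separase gene Espl1 was at 0.914 and 0.446 CPM against 19 and 18.5 CPM. Cyclins B1 and B2, the mitotic cyclins, fell by 4.54 ± 0.85 (Ccnb1) and 4.10 ± 0.41 (Ccnb2) on the log2 scale, and the kinetochore genes Ndc80 and Nuf2 by 4.87 ± 1.05 and 4.28 ± 0.56. The number of mitosis genes lower in P2 was 17 without P2 replicate 1, 17 without P2 replicate 2, 24 without P4 replicate 1 and 22 without P4 replicate 2, and 25 tested against a fold of 2.

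The exception was Plk1, the mitotic kinase, which was at 229 and 161 CPM in P2 and 35.3 and 43 CPM in P4 (log2 fold change 2.32 ± 0.34 (SE), edgeR adjusted p = 0.0017). In the annotation of NCBIM37, Plk1 ends at 129313389 on the plus strand of chromosome 7, and Ern2, a sensor of unfolded proteins in goblet cells on the minus strand, begins its interval at 129313407, with 17 bases between them. Ern2 was at 508 and 371 CPM in P2 and 53.8 and 36.2 CPM in P4. Counting ignored strand, and the part of Ern2 transcripts in the Plk1 counts was not tested. Both genes were named after their values were seen.

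Of 45 DNA replication genes, 26 fell, against 6.31% of all genes lower, 1 rose and 18 were not called (median log2 fold change -2.41). Mcm5 and Mcm3, subunits of the replicative helicase, were at 5.79 and 4.68 CPM and 8.53 and 4.68 CPM in P2 against 82.9 and 123 CPM and 67 and 101 CPM in P4. Uhrf1, which keeps DNA methylation through replication, fell from 58.6 and 79.3 CPM in P4 to 1.83 and 3.35 CPM in P2 (log2 fold change -4.68 ± 0.58 (SE), edgeR adjusted p = 0.00089). The licensing factor Cdc6 and the helicase partner Gins2 had log2 fold changes of -3.73 ± 0.79 and -3.97 ± 0.77. Rfc1, the large subunit of the clamp loader, named after its values were seen, rose alone (269 and 231 CPM in P2, 63.9 and 68.8 CPM in P4) and missed the threshold when the scaling left out the 10 most abundant genes or the mitochondrial genes (adjusted p 1.7e-09 to 0.060 over all alternatives). The number of replication genes lower in P2 was 7 without P2 replicate 1, 5 without P2 replicate 2, 13 without P4 replicate 1 and 8 without P4 replicate 2, and 12 tested against a fold of 2. The letters TTTCCCGC, an E2F site, stood within 250 bases before the start of 3 of 36 replication genes with a promoter sequence, of no mitosis gene among 34 and of 1.03% of all genes, on either strand. Cdc6 is shown as the one of the 3 with the largest fall, from chr11:98907973-98908060 (+ strand) in GRCm38.p6, with the match, here on the other strand, in capitals.
Cdc6: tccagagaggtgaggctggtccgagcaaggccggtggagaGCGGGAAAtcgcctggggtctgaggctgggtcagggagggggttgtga

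Among 13 cell cycle inhibitors tested, 3 rose and 1 fell, against 8.0% and 6.31% of all genes. Cdkn1a (p21) was at 161 and 307 CPM in P2 and 50.7 and 48.6 CPM in P4 (log2 fold change 2.24 ± 0.38 (SE), edgeR adjusted p = 0.0030). Cdkn1c (p57) was at 14.3 and 23.2 CPM against 4.05 and 3.77 CPM, and the antiproliferative gene Btg2 at 272 and 281 CPM against 55.8 and 62.4 CPM. Cdkn2c (p18) fell, from 13.9 and 12.8 CPM in P4 to 2.44 and 2.01 CPM in P2 (-2.59 ± 0.34). Cyclin D1 (Ccnd1), which drives entry into the cycle, was at 9.45 and 14.7 CPM in P2 and 76.4 and 122 CPM in P4 (log2 fold change -3.02 ± 0.50 (SE), edgeR adjusted p = 0.0028); its locus overlaps Oraov1 on the other strand. Btg2 was called in all 4 fits without 1 library, Cdkn2c in 3, Cdkn1a and Ccnd1 in 1 and Cdkn1c in none.

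Enterocyte genes were lower in P2 by value in 25 of 30 (median log2 fold change -1.61). The test called 3 of the 30 lower and none higher, against 6.31% of all genes lower and 8.0% higher. Mttp, which loads lipid onto lipoproteins, was at 86.6 and 70.9 CPM in P2 and 1172 and 617 CPM in P4 (log2 fold change -3.51 ± 0.59 (SE), edgeR adjusted p = 0.0029). The brush border phosphatase Alpi was at 16.5 and 26.5 CPM against 267 and 172 CPM, and Dgat1, of triglyceride synthesis, at 64.3 and 99.7 CPM against 463 and 289 CPM. All 30 genes were higher in replicate 1 of P4 than in replicate 2, with a median ratio of replicate 2 to replicate 1 of 0.342, and the list summed to 20470.0 and 8391 CPM in P4 and 3803 and 8222 CPM in P2. Replicate 2 of P4 was thus just above replicate 2 of P2. The number that fell was 19 with no filter on low counts, 14 by DESeq2, 11 with the 4 libraries alone, 9 without P3, 0 tested against a fold of 2 and 5 scaled without the 10 most abundant genes. Alpi and Dgat1 were called in none of the 4 fits that left out 1 library and Mttp in 1.

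Secretory cells carry a large endoplasmic reticulum (ER). Of 44 genes of ER folding and the unfolded protein response, 22 rose, none fell and 22 were not called. The median log2 fold change was 1.19, and 8.0% of all genes were higher. Together the list took 0.992% and 0.965% of the counts in P2 and 1.05% and 0.975% in P4. As a share of counts it was thus not higher in P2, and its rise is one of scaled levels. Edem2, which marks misfolded glycoproteins for disposal, was at 304 and 283 CPM in P2 and 38.8 and 40.2 CPM in P4 (log2 fold change 2.89 ± 0.28 (SE), edgeR adjusted p = 0.00047). The stress sensor Ern1 was at 374 and 294 CPM against 45.3 and 76.6 CPM, and its target Xbp1, named after its values were seen, at 592 and 629 CPM against 164 and 139 CPM. Derl3, a channel component of ER-associated degradation, had the largest log2 fold change, 5.10 ± 1.0, followed by the oxidase Ero1lb with 3.63 ± 0.80 and Herpud1 with 2.49 ± 0.48. The abundant chaperone Hspa5 (BiP) was at 957 and 781 CPM in P2 and 562 and 444 CPM in P4 and was not called (0.79 ± 0.29), nor was calreticulin, Calr (0.28 ± 0.28). The number of these genes higher in P2 was 11 without P2 replicate 1, 12 without P2 replicate 2, 6 without P4 replicate 1 and 6 without P4 replicate 2, and 7 tested against a fold of 2.

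The ER stress element, CCAAT and CCACG with any 9 bases between them, was searched within 250 bases before the start on both strands, and was found in 9 of 34 genes of the list with a promoter sequence and in 0.130% of all genes. Of these 9, 2 rose and 7 were not called. Derl3 (from chr10:75893202-75893300 (+ strand)) and Dnajc3 (from chr14:118937787-118937885 (+ strand)) are shown as those that rose, and Hspa5 (from chr2:34771985-34772083 (+ strand)) and Calr (from chr8:84847035-84847133 (- strand)) as chaperones that hold the element and were not called, all in GRCm38.p6 with the element in capitals, which lies on the other strand in Derl3 and Calr.
Derl3: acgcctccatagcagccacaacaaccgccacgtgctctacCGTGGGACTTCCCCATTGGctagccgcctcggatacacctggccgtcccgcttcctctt
Dnajc3: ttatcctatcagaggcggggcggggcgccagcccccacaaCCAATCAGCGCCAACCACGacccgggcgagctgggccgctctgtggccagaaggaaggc
Hspa5: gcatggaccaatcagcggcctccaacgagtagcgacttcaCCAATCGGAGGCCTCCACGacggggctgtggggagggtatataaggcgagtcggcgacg
Calr: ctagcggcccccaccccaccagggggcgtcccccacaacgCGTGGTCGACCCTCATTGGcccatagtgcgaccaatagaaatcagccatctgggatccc
The log2 fold changes of these 4 were 5.10 ± 1.0, 1.99 ± 0.21, 0.79 ± 0.29 and 0.28 ± 0.28 in that order. Dnajc3, Hspa5 and Calr were named after their values were seen.

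CDK9 phosphorylates RNA polymerase II during elongation. Of 37 genes of the polymerase and its elongation factors, 2 rose and none fell, a share near or below the 8.0% and 6.31% of all genes (median log2 fold change -0.02). Together the list took 0.129% and 0.136% of the counts in P2 and 0.235% and 0.264% in P4. As a share of counts it was thus lower in P2, and the likeness of levels holds for scaled values only. In the alternatives that kept all 4 libraries 2 rose as here, except 1 when tested against a fold of 2, and the number that fell was 4 with no filter on low counts, 3 by DESeq2, 3 with the 4 libraries alone and 4 without P3. Cdk9, the kinase of the reporter, was at 37.8 and 40.4 CPM in P2 and 37.8 and 42.3 CPM in P4, and its cyclin Ccnt1 at 44.2 and 45.5 CPM against 41.9 and 49.3 CPM. The libraries of P2 and P4 overlapped for both, with log2 fold changes of -0.03 ± 0.19 and -0.02 ± 0.20 (edgeR adjusted p = 0.92 and 0.95). Polr2a, the largest subunit, overlapped too (141 and 175 CPM in P2, 148 and 162 CPM in P4). The genes that rose were Ell2 and Aff4, both known from the super elongation complex. Ell2 was at 173 and 157 CPM in P2 and 23.1 and 22.6 CPM in P4 (log2 fold change 2.85 ± 0.44 (SE), edgeR adjusted p = 0.0021), and Aff4 at 239.6 and 256 CPM against 116 and 103 CPM (log2 fold change 1.18 ± 0.19 (SE), edgeR adjusted p = 0.0023). Neither was called in the fits that left out any 1 of the 4 libraries. Messenger levels say nothing of the activity of the kinase.

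The promoter of the reporter belongs to Eef1a1, which was at 1866 and 1432 CPM in P2 and 2723 and 2870.3 CPM in P4, with a log2 fold change of -0.76 ± 0.33 that was not called (edgeR adjusted p = 0.12). Both populations had the label EF1a low. Of the 7 translation elongation factors tested, Eef1b2 and Eef1g fell (-1.22 ± 0.26 and -0.88 ± 0.20), which they no longer did with DESeq2's size factors or without any 1 of the 4 libraries. Over all alternatives the adjusted p ran from 5.6e-05 to 0.35 for Eef1b2 and from 0.0022 to 1.0 for Eef1g.

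Epcam, the surface protein of the sorting gate, was at 672 and 786 CPM in P2 and 907 and 997 CPM in P4, and of 8 epithelial genes Krt18 alone was called, with 1161 and 1400.4 CPM against 268 and 363 CPM. Marker lists of other cells stayed low. The 14 lymphocyte genes summed to 18 and 23.4 CPM in P2 and 4.05 and 7.34 CPM in P4, with the T cell gene Cd3e at 0 in all 4 libraries and none of the 11 tested called. Most of the sum in P2 was Ptprc (CD45), at 14.3 and 22.3 CPM against 0.246 and 0.0992 CPM in P4, which missed the threshold (edgeR adjusted p = 0.012). The 10 myeloid and B cell genes summed to 2.44 and 6.24 CPM in P2 and 16.2 and 20.7 CPM in P4, and 1 of the 5 tested, Itgam, fell. The 16 stromal, endothelial, glial and erythroid genes summed to 32.6 and 59.6 CPM in P2 and 23.3 and 14.1 CPM in P4, with Cdh5 and Sox10 at 0 in all 4 and none of the 5 tested called. Cd3e, Ptprc, Itgam, Cdh5 and Sox10 were named after their values were seen.

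Beyond the lists, the genes with the largest fold changes in either direction were read from all 1962. Upward, 5 of the 10 were defensin genes or pseudogenes (Defa-ps7, Defa26, Gm15284, Defa-ps16 and AY761184), whose counts are uncertain as above. Sntb1, a syntrophin of the membrane skeleton, had 147 and 74.5 CPM in P2 and no counts in P4, and was at least 638-fold higher in P2 against a floor of 3 counts over both libraries of P4. On the same floor the lipid flippase Atp10a was at least 141-fold, the vitamin B12 carrier Gif at least 140.0-fold and Defa-ps16 at least 103-fold higher. Samd5 was at 158 and 130.0 CPM against 0.246 and 0 CPM, and Gm11062 at 10276 and 7289.7 CPM against 8.72 and 11.2 CPM. Without 1 of the 4 libraries, Sntb1 and Defa-ps7 stayed called each time, and Atp10a, Gif and Defa-ps16 in no case.

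Downward, Tcf23, BC030867, Cenpm and Mxd3 had no counts in P2, at least 19.3-fold, 14.9-fold, 13.8-fold and 9.80-fold lower in P2 against 3 counts over its 2 libraries. Cenpm is a kinetochore gene, as is Ndc80. The glutamate transporter Slc1a1 was at 2.44 and 2.90 CPM in P2 and 72.9 and 88.4 CPM in P4 (log2 fold change -4.89 ± 0.34 (SE), edgeR adjusted p = 0.00033), the retinol-binding protein gene Rbp7 at 0.305 and 0.892 CPM against 16.8 and 24 CPM, and the proprotein convertase Pcsk6 at 0.305 and 0.223 CPM against 12.3 and 5.06 CPM. Mgat4c, a glycosyltransferase, was at 0.305 and 0.223 CPM against 6.88 and 12.9 CPM. Slc1a1 and Rbp7 were called in all 4 fits without 1 library, and Tcf23, Cenpm, Mxd3, Pcsk6 and Ndc80 in none.

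The other populations give a scale for these levels. P5 (label OSCARmed EF1ahigh) and P1 (OSCARlow EF1alow) share the libraries of P2 with the comparison above, so the contrasts are given side by side. Lyz1 averaged 2862 CPM in P5 and 18565 CPM in P1, against 224345 CPM in P2 and 277 CPM in P4. Paneth genes higher in P2 numbered 26 of 33 against P5 (8.75% of all genes were higher in P2) and 13 against P1 (13.9%), and goblet genes 23 and 25 of 28. Of the stem cell list, 5 rose and 3 fell against P5, and 12 rose and 1 fell against P1. Lgr5 averaged 87.9 CPM in P5 and 10.1 CPM in P1, and Mki67 677 CPM and 103 CPM. Mitosis genes lower in P2 numbered 39 of 40 against P5 (7.14% of all genes were lower) and 34 against P1 (15.2%). Of these 4 populations, P2 had the lowest summed level of the mitosis list, at 403 and 335 CPM, and the highest in those of the 4 secretory cell types. The tuft sum in P2 was 4307 and 4751 CPM. Of this, 2933 and 2372 CPM were Cd24a, which is counted in the Paneth sum too.

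**Figure D5:**
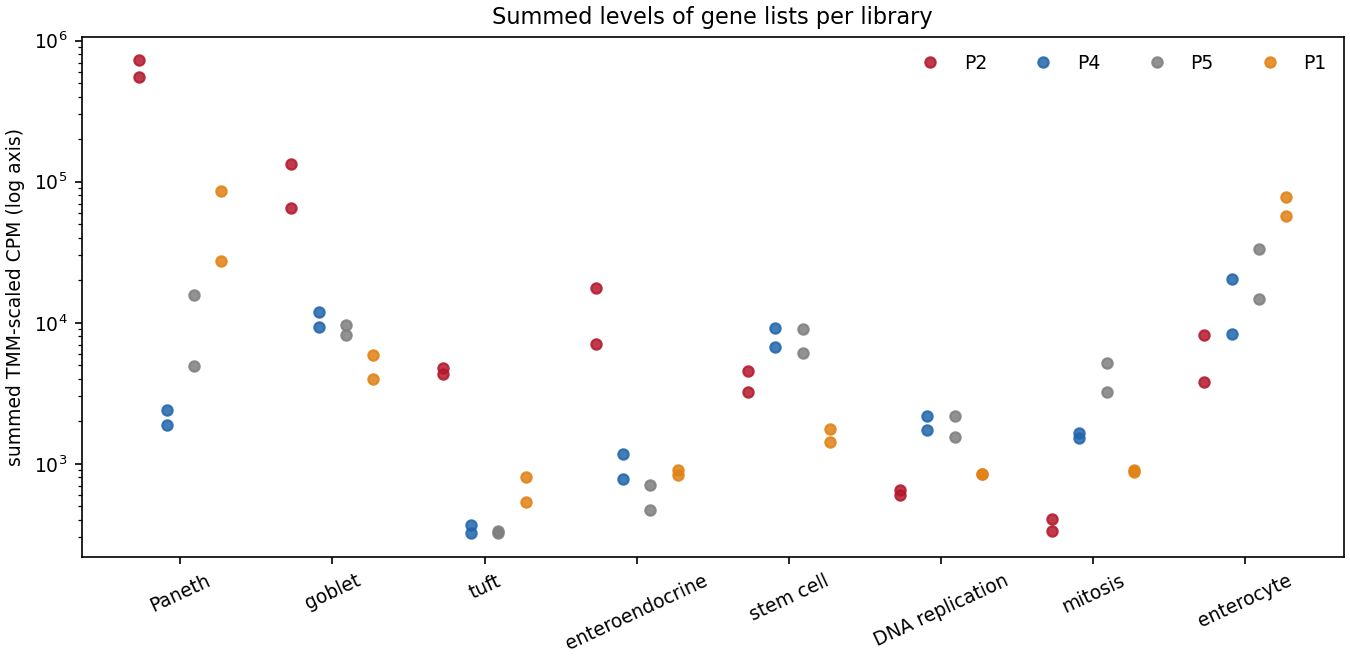
Summed levels of gene lists in P2, P4, P5 and P1. Points are the summed TMM-scaled CPM of a list in 1 library (log axis), 2 libraries per population; P3 is not drawn. The mitosis list sums to 403 and 335 CPM in P2 and 1532 and 1650.0 CPM in P4, and the stem cell list to 4550.0 and 3237 CPM and 6738 and 9219 CPM. Cd24a is counted in both the Paneth and the tuft sum.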

How the data were processed

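Poly-A RNA of 10000 sorted cells per population was sequenced in 2 libraries for each of 5 populations, 10 in all, of which the 4 of P2 and P4 are compared here. The authors mapped the reads to mm9 with TopHat 2.1.0 after a FastQC 0.11.5 check and counted them on exons with HTSeq 0.11.2 without regard to strand; the annotation was not given in the sources used here. The deposited values are raw counts per gene. Reads with several alignments were not counted, so near-identical genes are underestimated. Libraries were grouped by sample title.

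Of 35006 gene names, 33643 were found in the GENCODE annotation of NCBIM37, used for positions and overlaps. Summary rows, a nameless row (0.000230% to 0.000509% of counts in the 4 libraries) and 206 rRNA names were removed. Genes were filtered with filterByExpr, scaled with TMM and fitted with 5 population means over 10 libraries in edgeR 4.0.16 (R 4.3.3), with 5 residual degrees of freedom. P2 minus P4 was tested with the quasi-likelihood test, Benjamini-Hochberg adjusted over 13706 genes, and standard errors were derived from the F statistics. The study used DESeq2; here DESeq2 1.42.0 was an alternative. The other alternatives changed the scaling, filter, threshold, libraries and genes fitted, and added a replicate block. A count of 0 was given a floor of 3 counts, 0.386 CPM over P2 and 0.165 CPM over P4, a limit for counting error alone. The fit was also run on simulated data with known changes, drawn from a single mean profile for all libraries. These data lacked the Paneth share that sets P2 apart, so they do not test the scaling of this contrast. Promoters came from a RefSeq table (GRCm38.p6), and tables were computed in Python 3.11.15 (pandas 2.3.3). Promoters on chromosome 18, where Aqp4 of the stem cell list lies, were left out of all motif counts.

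The populations and gene lists were chosen with earlier results of these data known, so the lists are described by counts and medians without a test. Named were, per list, up to 5 called members with the largest fold change and no overlap, 27 fixed genes, and the 10 largest changes in each direction; any further gene is said to have been chosen with its values in view. A few genes that this rule names are not reported here.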

Additional observations from a re-analysis of the deposited data

How the results depend on the processing

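Between P2 and P4, 1962 genes were called (1097 higher, 865 lower). DESeq2's Wald test called 3077 genes (1782 higher, 1295 lower), the fit with no filter on low counts 3500 genes (1760 higher, 1740 lower), a threshold of 0.05 on the adjusted p 3987 genes (2202 higher, 1785 lower), and a test against a fold of 2 554 genes (361 higher, 193 lower). Leaving out 1 library gave 320 to 622 genes, 138 to 400 higher and 182 to 255 lower; the population left with 1 library was then assumed to vary like the others. The other alternatives (DESeq2 size factors, scaling without the 10 most abundant genes, the 4 libraries alone, without P3, rRNA kept, mitochondrial genes removed) stayed within 1.5 times of the 3 counts. No scaling moved the median of all genes by more than 0.1 on the log2 scale. Each scaling tried sets the bulk of genes near no change, so this does not test the scaling of P2 against P4. Scaling to total counts alone was not run. In none of the alternatives did a named gene past the threshold reverse its sign. With 1 library left out, list medians ran over 8.73 to 9.44 for Paneth, 2.67 to 3.10 for goblet, 3.03 to 3.72 for tuft, 2.24 to 3.63 for enteroendocrine and -0.95 to -0.50 for stem cell genes. Of 111 named genes past the threshold, 23 stayed so in all 4 fits without 1 library and 42 in none; the cause was not tested. DESeq2 lost none of the 111 and added 12 of the other named genes.

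The numbers of the replicates are shared by the labels of all populations, but nothing says that they mark a mouse or a day. Deviations of same-numbered libraries of P2 and P4 correlated at r = 0.101 across genes. For P4 and P5 the correlation was highest, at r = 0.554. It was positive for every pair of populations but P2 and P3, at r = -0.0598. What same-numbered libraries share was not tested. A fit with a replicate block called 2391 genes (1310 higher, 1081 lower), of which 1953 were among the 1962. Among the lists, the block moved the number of enterocyte genes lower in P2 from 3 to 13 and that of stem cell genes from 3 to 5.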
